A study of Mus musculus with 12 samples.

Results

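The question addressed here was how a catalase transgene changed gene expression in kidney proximal tubules of diabetic dB/dB mice. The tested arrays were 3 from dB/dB catalase-Tg mice, which carry the dB/dB genotype together with the catalase transgene, and they were set against 3 arrays from dB/dB mice, so that 6 of the 12 arrays of the study were compared. The other 6 arrays were 3 from catalase-Tg mice, which carry the transgene without dB/dB, and 3 from wild-type mice. All mice were 20 weeks old and ate a normal diet, and tubules were isolated by Percoll centrifugation before total RNA was labelled for Affymetrix mouse arrays. The members were taken from the sample titles, and the difference is the mean of the dB/dB catalase-Tg arrays minus the mean of the dB/dB arrays, on a log2 scale, for the 18144 of 45037 non-control probe sets that lay above 4 on at least 3 of the 12 arrays. The labels number the samples of a group 1 to 3 without saying that they are separate animals, and the p-values below cover only the variation among those samples, part or all of which may be technical. Neither the strain, the sex nor the structure of the transgene is in the labels, and whether tubules of several animals were pooled is not given in the sources used here.

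Catalase is the peroxisomal enzyme that turns hydrogen peroxide into water and oxygen, and the proximal tubule, which reabsorbs most filtered glucose, amino acids, phosphate and protein, is rich in peroxisomes and mitochondria and so makes much of this peroxide. In dB/dB mice a defect of the leptin receptor leads to overeating, obesity and diabetes, and catalase has been raised in their tubules to lower oxidative stress there. From work with these mice and not from the labels, the transgene holds rat catalase under the promoter of Kap, the kidney androgen-regulated protein gene, which is active in proximal tubule cells and responds to androgen. Whether the mouse Cat probe sets also detect rat catalase was not tested, so they are no check of the labels. The brighter of them read 11.78, 12.64 and 12.90 on dB/dB catalase-Tg 1, 2 and 3, against 12.24, 12.36 and 12.56 on dB/dB 1, 2 and 3. The dimmer one read 11.43, 12.68 and 12.69 in dB/dB catalase-Tg, against 11.56, 11.39 and 11.82 in dB/dB. Both pairs of groups overlapped, with differences of 0.06 (log2, SE 0.48) and 0.68 (SE 0.57). All 4 Lepr probe sets lay below the filter in both groups and check nothing either.

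dB/dB catalase-Tg 1 stood apart from the other arrays of its group and resembled dB/dB. Across the probe sets tested, its mean correlation was 0.962 with the dB/dB arrays and 0.894 with dB/dB catalase-Tg 2 and 3, and its limma array weight was 0.172, the lowest of the 12. Its mean level of podocyte, endothelial and mural markers, relative to the mean of all 12 arrays, was 1.33, against -0.98 and -1.28 on dB/dB catalase-Tg 2 and 3, and 1.50, 0.74 and 1.94 on dB/dB 1, 2 and 3. In 32 of 33 gene lists its level lay nearer to the dB/dB mean than to that of dB/dB catalase-Tg 2 and 3. Some lists share genes, so these are not independent results. The likeness was not particular to this array. Wild type 1, which is not dB/dB, had a mean correlation of 0.965 with the dB/dB arrays, a weight of 0.227 and a marker level of 1.73. With that marker level as a covariate, differences turned sign for both Cat probe sets, Agt, Kap, Nox4, Khk, Fbp1, Slc3a1, Lrp2, Dab2 and Fabp1, which lay above 0, and for Hspa1b, Klf4, Pecam1 and Slc12a3, which lay below. Pecam1 is itself among the markers averaged in that marker level, so its turn is no independent result. The part of dB/dB catalase-Tg 1 in each result was not tested beyond leaving it out, and differences are therefore given with all 3 arrays and, as 'without array 1', with dB/dB catalase-Tg 2 and 3 alone. Xist was near the floor on all 6 arrays and Y-linked transcripts were present, with the translation factor gene Eif2s3y at 7.88, 8.10 and 8.37 in dB/dB catalase-Tg and at 8.42, 8.93 and 8.46 in dB/dB. The wild-type group was mixed in these transcripts. Its mean enters only the comparisons near the end, while its arrays also enter the filter and the 12-array means. They also enter the spread behind every SE and p-value of the 12-array fit. Xist read 2.32, 11.91 and 6.72 and Eif2s3y 8.13, 2.30 and 7.89 on wild type 1, 2 and 3, while on the catalase-Tg arrays Xist stayed at or below 2.67 and Eif2s3y at or above 8.06. In bulk tubule RNA, fewer cells of a type and less RNA per cell cannot be told apart.

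A single probe set of 18144 passed the test at an adjusted p under 0.05, or 0.00551% of those tested, and it reports Med1. Med1 encodes the Mediator subunit through which nuclear receptors, PPARs among them, contact the RNA polymerase II machinery. It read 5.54, 6.17 and 6.32 on the dB/dB catalase-Tg arrays, against 8.21, 8.23 and 8.39 on the dB/dB arrays. The groups were separated by a gap of 1.89 and dB/dB catalase-Tg 1 had the lowest value, so that on this probe set the array did not resemble dB/dB. Med1 fell in dB/dB catalase-Tg, by a difference of -2.27 (log2, SE 0.21, adjusted p = 0.00974, limma), or 0.208 times the dB/dB level. Without array 1 the difference was -2.03 (SE 0.16, adjusted p = 0.0063). The call ended when dB/dB 1, dB/dB 2, dB/dB 3 or dB/dB catalase-Tg 2 was left out, when the 6 arrays were fitted alone, and with the other-cell marker covariate and array weights together, with adjusted p up to 0.268 over the alternatives tried, while the size stayed between -2.45 and -2.03.

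Other Med1 probe sets did not show a fall of this size. The brightest of the others read 5.40, 6.88 and 6.96 on dB/dB catalase-Tg arrays and 6.87, 6.62 and 6.44 on dB/dB arrays, a difference of -0.23 (SE 0.39) that became 0.28 without array 1. The other 2 tested gave -0.64 (SE 0.28, adjusted p = 0.636, limma) and 0.07, and the remaining 3 lay below the filter. The first of these 2 read 5.17, 4.42 and 5.17 in dB/dB catalase-Tg, against 5.59, 5.91 and 5.17 in dB/dB. A fall that separated the groups was thus seen on 1 of the 4 Med1 probe sets tested. Over the 31 Mediator subunits tested the median difference was 0.02, and its sign turned without dB/dB 2 (-0.05) or without dB/dB catalase-Tg 2 (-0.10). Of the other subunits, Med30 was lower without overlap (-0.82, SE 0.26, adjusted p = 0.636), and Med25 was higher without overlap (0.37, SE 0.17, adjusted p = 0.636). Over the 31, Med1 included, 3 separated lower (9.68%, against 11.1% of all probe sets) and 1 higher (3.23%, against 4.87%).

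The next 4 probe sets by p did not pass. Decr2 encodes the peroxisomal dienoyl-CoA reductase, which helps to shorten unsaturated fatty acids. It read 7.69, 7.54 and 7.68 in dB/dB catalase-Tg and 5.72, 5.69 and 6.27 in dB/dB, a gap of 1.26 between groups that each lay close together. The difference was 1.74 (SE 0.23, adjusted p = 0.143), and 1.71 without array 1, where the adjusted p was 0.157. Acbd4, an acyl-CoA-binding protein, read 9.38, 9.70 and 9.73 in dB/dB catalase-Tg, against 8.11, 8.32 and 8.31 in dB/dB, a difference of 1.36 (SE 0.20, adjusted p = 0.186). Its second probe set separated the groups too, at 5.91, 7.65 and 7.52 in dB/dB catalase-Tg against 5.36, 4.29 and 5.32 in dB/dB (2.04, SE 0.60, adjusted p = 0.636). Smarce1, a subunit of the SWI/SNF chromatin-remodelling complex that was chosen after its values were seen, read 6.62, 6.28 and 6.05 in dB/dB catalase-Tg, against 7.75, 7.77 and 7.84 in dB/dB (-1.47, SE 0.25, adjusted p = 0.548). Its other tested probe set gave -0.07. The last has no gene symbol in the annotation and gave -1.22 (SE 0.17, adjusted p = 0.146). Med1, Acbd4 and Smarce1 lie on chromosome 11. These same 3 are the chromosome 11 members of the 17 probe sets with a chromosome among the 20 of smallest p (17.6%). Of all 16289 tested probe sets with a chromosome, 8.25% lie there. The 20 were ranked in these same data, so the share is a description and not a test. Of the 10 genes on either side of Med1, 8 were on the array and 4 were tested, with a median of -0.51 and 0 separated.

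**Figure D1:**
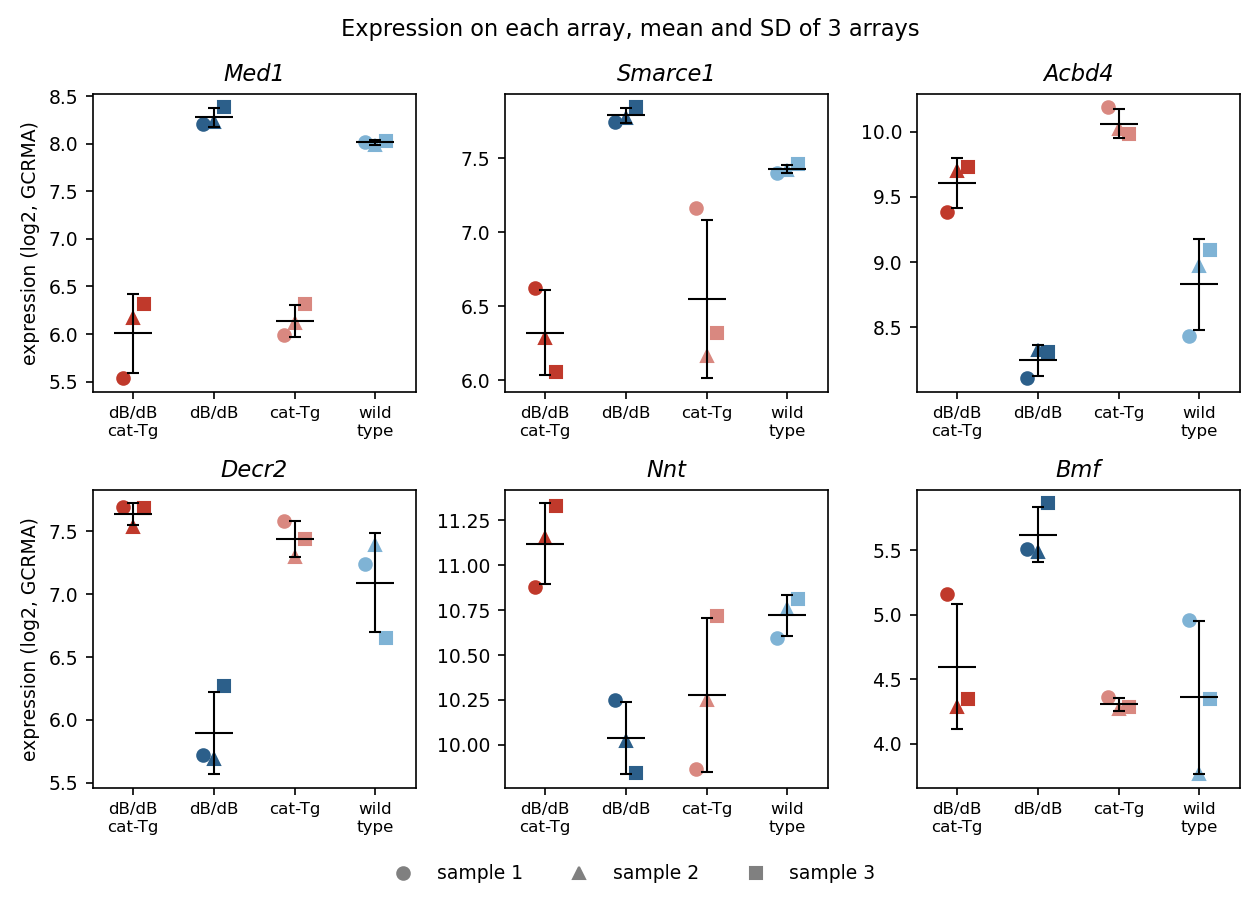
Log2 expression of Med1, Smarce1, Acbd4, Decr2, Nnt and Bmf on each array of the 4 groups, with the mean and SD of 3 arrays as bars. Med1 lay between 5.54 and 6.32 on all dB/dB catalase-Tg arrays and between 8.21 and 8.39 on the dB/dB arrays, and Bmf was as low on the catalase-Tg arrays as on dB/dB catalase-Tg 2 and 3.

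The 250 bases upstream of the annotated start are shown for 3 genes, Med1 and Decr2 as the probe sets of smallest p with a sequence at hand, and Kap as the source of the promoter said to drive the transgene. They come from RefSeq (GRCm38.p6) and end at the base before the start. All are on the minus strand, Med1 at chr11:98192907-98193156, Decr2 at chr17:26090165-26090414 and Kap at chr6:133853668-133853917, and capitals mark a TATA box core (TATAAA) or a GC box (GGGCGG) on either strand.
Med1: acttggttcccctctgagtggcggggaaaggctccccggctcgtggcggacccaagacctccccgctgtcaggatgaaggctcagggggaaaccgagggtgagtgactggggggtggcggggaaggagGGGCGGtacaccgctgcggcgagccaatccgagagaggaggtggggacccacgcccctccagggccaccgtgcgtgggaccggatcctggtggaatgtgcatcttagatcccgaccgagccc
Decr2: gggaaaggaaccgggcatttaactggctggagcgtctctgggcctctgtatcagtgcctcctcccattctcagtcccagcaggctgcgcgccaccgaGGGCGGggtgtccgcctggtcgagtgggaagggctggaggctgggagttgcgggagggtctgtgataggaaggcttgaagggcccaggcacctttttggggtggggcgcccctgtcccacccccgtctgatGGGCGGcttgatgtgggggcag
Kap: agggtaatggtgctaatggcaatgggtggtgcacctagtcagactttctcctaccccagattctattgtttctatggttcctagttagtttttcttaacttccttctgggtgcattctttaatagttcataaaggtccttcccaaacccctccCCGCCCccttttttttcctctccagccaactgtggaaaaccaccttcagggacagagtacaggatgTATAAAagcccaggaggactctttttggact
The Med1 window was 68.0% G or C with 18 CpG and held 1 GC box, at -122 from the start, and no TATAAA. Decr2, at 66.0% and 12 CpG, held GC boxes at -153 and -22. Kap, at 45.6% and 1 CpG, held TATAAA at -31 and a GC box on the other strand at -97. These letters are common, as 12.4% of 32851 promoters held TATAAA and 32.7% held GGGCGG in the same window. Neither an androgen receptor half-site (AGAACA, 16.1% of promoters) nor an antioxidant response element core (TGACNNNGC, 10.2%) was found in these 3 windows on either strand, and no capitals overlap.

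Short of the threshold, lower values were more frequent than higher ones. All 3 dB/dB catalase-Tg arrays lay above all 3 dB/dB arrays for 883 probe sets (4.87%) and below them for 2014 (11.1%), so that 30.5% of the separated probe sets were higher. These 2 shares are the background for every count of members that separated. That split depended on the scaling, since quantile normalization gave 51.6% higher and centring each array on its median 29.9%. The median difference over all probe sets was -0.02, and 48.3% of differences were above 0. With array 1 set aside, arrays 2 and 3 both lay above all dB/dB arrays for 32.9% of probe sets and below them for 25.1%. An unadjusted p under 0.05 was reached by 7.5% of probe sets, 379 higher (2.09%) and 981 lower (5.41%). A gap of more than 1 between the nearest arrays of the groups, a description chosen after seeing the data, was found for 5 higher probe sets (0.0276%) and 44 lower ones (0.243%). The 5 were Decr2, Apoh, Chn2, Acbd4 and Espn. When the arrays of lowest weight (dB/dB catalase-Tg 1, catalase-Tg 1 and wild type 1) were left out, 16.1% of probe sets passed higher and 11.7% passed lower. These 3 arrays were picked from the data, by their distance from their own groups, and these shares are the background for each count given for that fit, called the 9-array fit here.

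**Figure D2:**
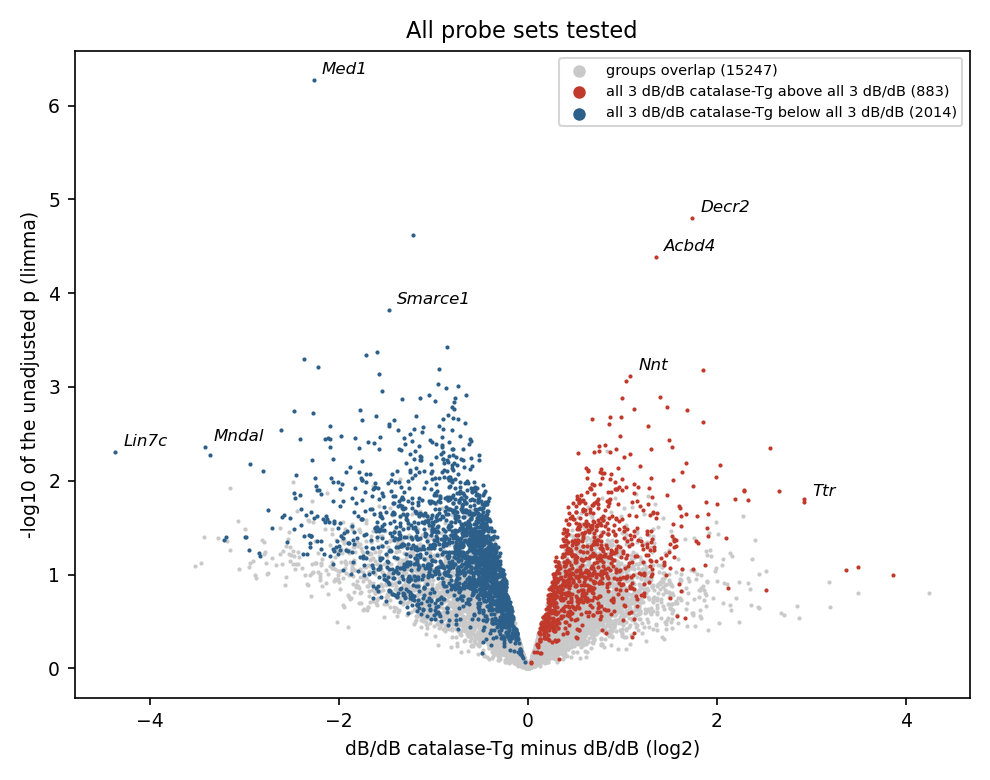
The dB/dB catalase-Tg minus dB/dB difference (log2, horizontal) against -log10 of the unadjusted limma p (vertical) for all 18144 probe sets tested. Red marks the 883 whose 3 dB/dB catalase-Tg arrays lay above all dB/dB arrays and blue the 2014 below, and Med1 lies at the top.

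Among genes without overlap that also had an unadjusted p under 0.05 and a higher group mean of at least 5, the largest positive differences were those of Ttr, Them7, Pla2g5, Clba1, Acbd4, Ak4 and Plbd1, and none passed (adjusted p = 0.636 for each, limma). Ttr encodes transthyretin, a carrier of thyroxine and retinol-binding protein. It read 7.70, 10.67 and 10.35 in dB/dB catalase-Tg and 7.08, 6.82 and 6.06 in dB/dB, a difference of 2.92 (SE 1.03), or 3.86 without array 1. The 3 further Ttr probe sets separated the groups by 2.92, 2.29 and 2.19. Them7 read 8.52, 11.06 and 10.79 in dB/dB catalase-Tg, against 7.23, 7.39 and 7.77 in dB/dB (2.66, SE 0.89). Pla2g5, a secreted phospholipase, differed by 2.33 (SE 0.81), Clba1, a clathrin-binding protein, by 2.28 (SE 0.76), Ak4, a mitochondrial adenylate kinase, by 2.00 (SE 0.71) and Plbd1 by 1.91 (SE 0.81). In each of these 6 genes dB/dB catalase-Tg 1 had the lowest value of its group, and without it the differences were larger.

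Of the largest negative differences chosen by the same limits, some were near the floor on all dB/dB catalase-Tg arrays and others were graded. Lin7c, a scaffold protein of cell polarity, read 2.45, 2.31 and 2.61 in dB/dB catalase-Tg, near the floor of 2.302, against 7.15, 6.25 and 7.07 in dB/dB (-4.37, SE 1.23, adjusted p = 0.636). The array values also split within other groups, at 5.57, 2.66 and 2.61 on catalase-Tg 1, 2 and 3 and 2.31, 7.38 and 7.29 on wild type 1, 2 and 3. A second Lin7c probe set read 6.08, 7.41 and 7.64 in dB/dB catalase-Tg, against 7.75, 7.39 and 7.83 in dB/dB, and overlapped (-0.61), so the low signal was seen on 1 of these 2 probe sets. Syt9, a synaptotagmin named after its values were seen, read 2.84, 2.79 and 2.79 in dB/dB catalase-Tg, against 5.33, 5.39 and 5.12 in dB/dB (-2.47, SE 0.59). Lin7c and Syt9 were the 2 probe sets that passed when the 6 arrays were fitted alone, where Med1 did not. Gm266 was near the floor in dB/dB catalase-Tg too, at 2.39, 2.32 and 2.32 against 4.91, 4.24 and 6.70 in dB/dB.

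Apart from Mndal, the graded differences ran with the other-cell markers. Ptpro and Thsd7a, both podocyte genes, differed by -3.19 (SE 1.36) and -3.00 (SE 1.27). Ccn2, a matricellular growth factor, read 8.75, 6.62 and 5.85 in dB/dB catalase-Tg and 10.26, 8.76 and 11.15 in dB/dB (-2.98, SE 1.27), and the RNA-binding Rbms3 (-2.80), the vesicle GTPase Rab3b (-2.75) and the Wnt modulator Sfrp2 (-2.71) ran alike. In all of these dB/dB catalase-Tg 1 was the highest array of its group and dB/dB 2 the lowest of its own, the order in which the arrays stood for podocyte markers. Ptpro and Thsd7a are themselves among the podocyte markers averaged, so their order is no independent result. Mndal, an interferon-inducible gene of the p200 family, read 6.53, 4.23 and 2.40 in dB/dB catalase-Tg, against 7.49, 7.97 and 7.96 in dB/dB (-3.42, SE 0.94), and its second probe set gave -3.37. Its dB/dB arrays did not follow the podocyte order, as dB/dB 2 was the highest of them. The part of other cells in these differences was not tested beyond the covariate given with the dependence on processing.

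Of 19 enzymes tested that remove peroxide none passed, 17 lay above 0 (48.3% of all probe sets did), and the median difference was 0.26, or 0.57 without array 1. Without overlap, 4 were higher (21.1%, against 4.87% of all probe sets) and 1 was lower (5.26%, against 11.1%). The list level was -0.32, 0.25 and 0.30 on dB/dB catalase-Tg 1, 2 and 3 and -0.11, -0.30 and -0.19 on dB/dB 1, 2 and 3. Txn1, the thioredoxin that recycles peroxiredoxins, read 11.83, 12.46 and 12.26 in dB/dB catalase-Tg, against 11.60, 11.26 and 11.53 in dB/dB (0.72, SE 0.29). Srxn1, which restores overoxidized peroxiredoxins, differed by 0.53 (SE 0.23), and Sod3, the extracellular superoxide dismutase, by 1.55 (SE 0.70), at 8.70, 10.45 and 10.67 in dB/dB catalase-Tg against 8.45, 8.26 and 8.48 in dB/dB. Gpx3, a plasma glutathione peroxidase made in the proximal tubule, was near the top of the scale in both groups, at 15.07, 15.10 and 15.14 in dB/dB catalase-Tg against 15.02, 15.02 and 14.97 in dB/dB. Gpx1, the main intracellular glutathione peroxidase, overlapped (0.51, SE 0.32, or 0.75 without array 1). The separated lower member was Gpx8, a peroxidase of the endoplasmic reticulum, at 7.60, 5.88 and 5.89 in dB/dB catalase-Tg against 8.60, 7.93 and 8.61 in dB/dB (-1.92, SE 0.89). In the 9-array fit 8 members passed higher and 1 lower.

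Targets of NRF2, the transcription factor that responds to oxidants, were mixed in direction. Of 23 tested, 15 lay above 0 and 8 below, with a median of 0.16 (0.50 without array 1), and 5 were higher (21.7%, against 4.87% of all probe sets) and 3 lower (13%, against 11.1%) without overlap. Gclm, which with Gclc makes the rate-limiting enzyme of glutathione synthesis, read 8.85, 9.20 and 9.18 in dB/dB catalase-Tg and 8.25, 8.25 and 8.08 in dB/dB (0.88, SE 0.42). Gstp1 differed by 0.43 (SE 0.19) and Gsta4, a glutathione transferase for lipid peroxidation products, by -1.42 (SE 0.49). Hmox1, heme oxygenase 1, read 3.85, 5.0 and 5.33 in dB/dB catalase-Tg, against 4.44, 3.23 and 4.08 in dB/dB, and the groups overlapped (0.81, SE 0.48). Nfe2l2, the gene of NRF2 itself, was among the 3 lower without overlap, with Ephx1 and Gsta4. Of the 23, 7 passed higher and 1 lower in the 9-array fit.

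Of 11 oxidases tested that make superoxide or peroxide, 9 lay above 0 (median 0.46, or 0.51 without array 1), and Dao, the peroxisomal D-amino acid oxidase, was the separated member (9.09% of the list, against 4.87% of all probe sets), at 10.35, 11.11 and 11.01 in dB/dB catalase-Tg against 9.89, 10.07 and 9.99 in dB/dB (0.84, SE 0.51). Nox4, the main NADPH oxidase of the tubule and a source of peroxide, read 10.67, 12.15 and 12.21 in dB/dB catalase-Tg, against 10.56, 11.05 and 10.75 in dB/dB (0.89, SE 0.59). Its membrane partner Cyba, the p22phox subunit, differed by 0.74 (SE 0.47). For both, dB/dB catalase-Tg 1 lay among the dB/dB arrays and the others above them. Of the 11, 4 passed higher and 0 lower in the 9-array fit.

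Peroxisomal genes, the compartment where catalase acts, lay above 0 for 28 of 30 members, with a median of 0.42 (0.77 without array 1). The list level was -0.60, 0.46 and 0.69 in dB/dB catalase-Tg and -0.35, -0.71 and -0.21 in dB/dB. Only Decr2, described above, and Acot8 were separated (6.67%, against 4.87% of all probe sets), Acot8, a peroxisomal acyl-CoA thioesterase, at 7.16, 7.63 and 8.15 in dB/dB catalase-Tg against 7.11, 6.93 and 6.96 in dB/dB (0.64, SE 0.27). Acox2 and Acox3, oxidases of branched fatty acids and bile acid precursors that release peroxide, differed by 2.52 (SE 1.35) and 2.05 (SE 1.06). Acox3 read 3.57, 7.24 and 7.41 in dB/dB catalase-Tg, against 4.16, 3.55 and 4.35 in dB/dB, so that dB/dB catalase-Tg 1 again lay with dB/dB. Pex5, the import receptor for peroxisomal proteins, differed by 0.81 (SE 0.44). In the 9-array fit 15 of the 30 passed higher and 0 lower, while in the fit of all 12 arrays 0 passed and 2 reached an unadjusted p under 0.05.

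Nnt, the mitochondrial transhydrogenase that makes NADPH for peroxide removal, stood outside these lists and was chosen after its values were seen. It read 10.88, 11.15 and 11.33 in dB/dB catalase-Tg and 10.25, 10.02 and 9.85 in dB/dB. All 3 arrays were higher and dB/dB catalase-Tg 1 took part (1.08, SE 0.23, adjusted p = 0.636, or 1.20 without array 1).

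Among cell death genes, Bmf and Bcl2 were the separated members of the Bcl-2 family and both were lower (15.4% of 13, against 11.1% of all probe sets). Bmf, a pro-apoptotic BH3-only protein, read 5.16, 4.29 and 4.35 in dB/dB catalase-Tg and 5.51, 5.48 and 5.86 in dB/dB (-1.02, SE 0.31, adjusted p = 0.636, or -1.30 without array 1). Bcl2, the anti-apoptotic founder of the family, read 5.39, 5.45 and 5.0 in dB/dB catalase-Tg, against 6.33, 6.53 and 6.10 in dB/dB (-1.04, SE 0.37, adjusted p = 0.636). The 13 family members tested had a median of 0.04, or 0.26 without array 1 and -0.11 without dB/dB catalase-Tg 2. Of 14 caspase and apoptosome genes, 9 lay below 0 (median -0.20), yet 3 separated higher (21.4%, against 4.87%) and 1 lower (7.14%, against 11.1%), namely the initiators Casp9 (0.70, SE 0.25) and Casp8 (0.40, SE 0.17) and the mitochondrial Diablo (0.32), with the inhibitor Birc2 lower (-0.43, SE 0.19). Cflar, which blocks caspase-8, overlapped (0.86, SE 0.45). Casp12 lay below the filter in both groups, at 3.89, 2.91 and 2.39 in dB/dB catalase-Tg against 3.65, 2.82 and 3.49 in dB/dB on 1 of its 2 probe sets.

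Genes of the unfolded protein response had a median of 0.08 over 26 tested, 16 of them above 0. Hyou1, a chaperone of the endoplasmic reticulum, separated at 6.61, 6.89 and 7.06 in dB/dB catalase-Tg against 6.17, 6.52 and 6.32 in dB/dB (0.51, SE 0.23), as did Dnajb11. These 2 made up 7.69% of the list, against 4.87% of all probe sets. In the renin angiotensin system the median was 0.06 over 9 genes, or 0.34 without array 1 and -0.11 without dB/dB catalase-Tg 2. Agt, the precursor of all angiotensins, read 4.54, 6.36 and 7.25 in dB/dB catalase-Tg and 4.40, 4.60 and 4.78 in dB/dB. The groups overlapped, since dB/dB catalase-Tg 1 lay within dB/dB, and the difference was 1.46 (SE 0.93, adjusted p = 0.642) or 2.22 without array 1. The separated member was Anpep, the brush border aminopeptidase that trims angiotensins, at 7.17, 7.86 and 8.12 in dB/dB catalase-Tg against 6.55, 6.85 and 6.46 in dB/dB (1.09, SE 0.62). Anpep made up 11.1% of the 9, against 4.87% of all probe sets separated higher. Prcp, a carboxypeptidase that inactivates angiotensin II, differed by 1.03 (SE 0.53) with overlap.

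**Figure D3:**
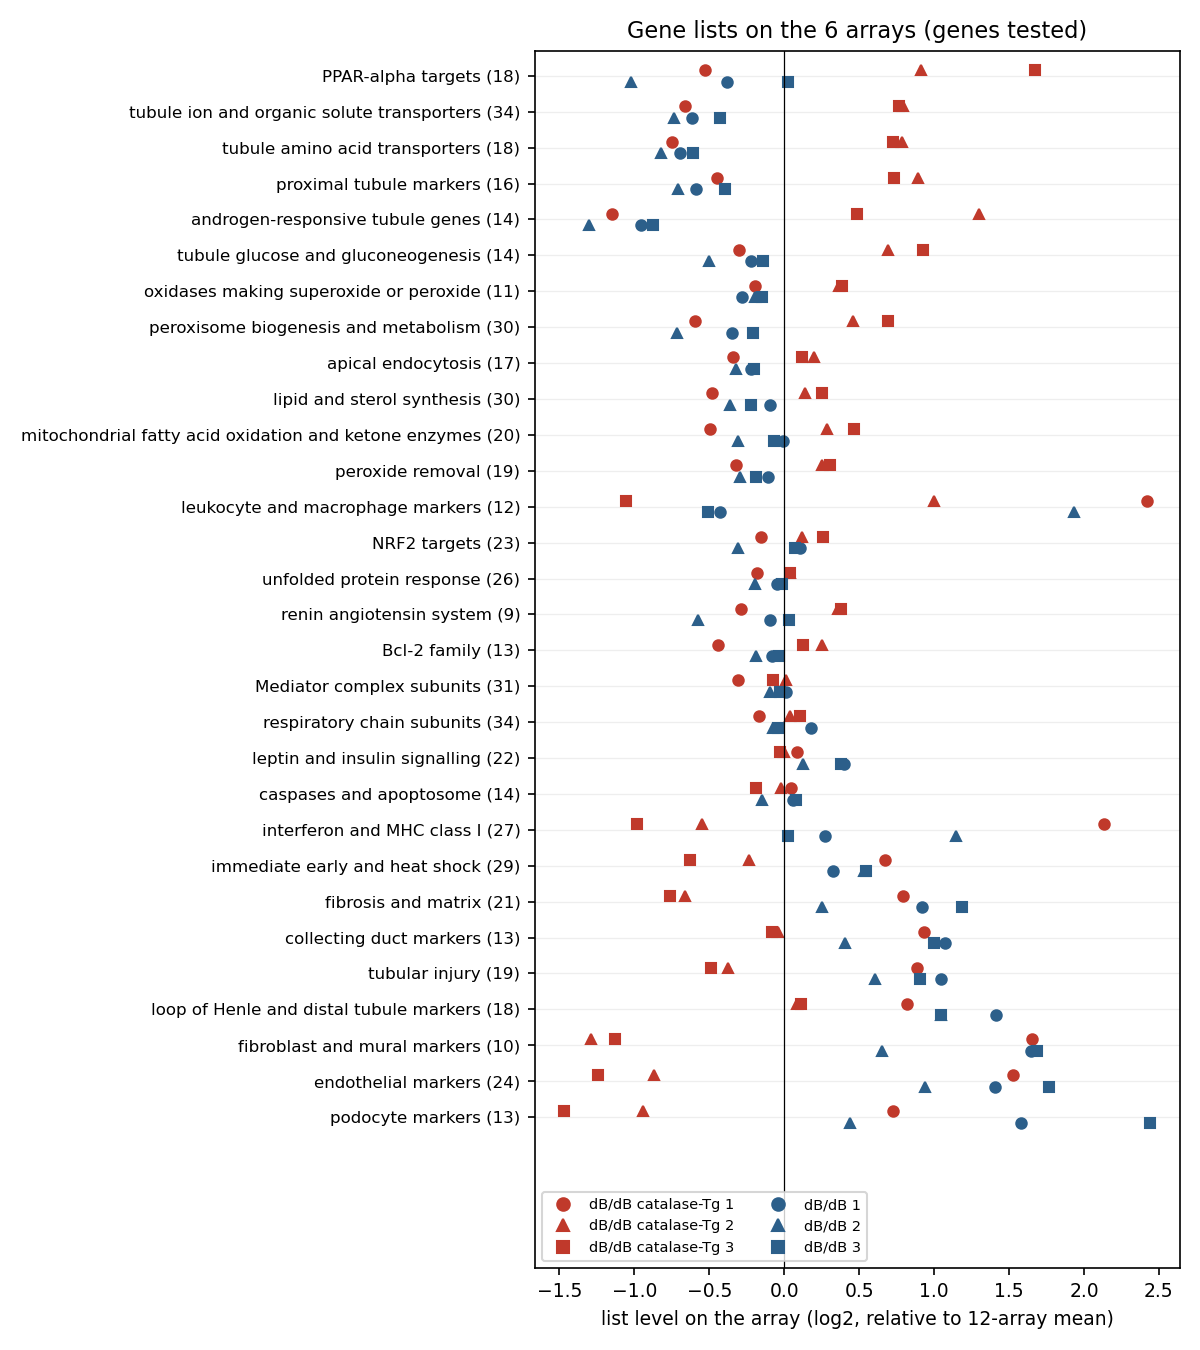
The level of each gene list with at least 9 genes tested on the 3 dB/dB catalase-Tg arrays (red) and the 3 dB/dB arrays (blue), as the mean of its members relative to their mean over 12 arrays (log2). The dB/dB catalase-Tg 1 symbol lies with the dB/dB symbols for most lists, and for leukocyte and interferon genes it is the highest of the 6.

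Genes of the proximal tubule itself were higher on dB/dB catalase-Tg 2 and 3, and on array 1 their levels were close to dB/dB. All 16 proximal tubule markers lay above 0 (median 0.79, or 1.11 without array 1), with levels of -0.44, 0.89 and 0.73 in dB/dB catalase-Tg and -0.59, -0.70 and -0.39 in dB/dB. The defining markers were abundant in both groups, as with Slc34a1, the phosphate transporter of this segment, at 13.66, 13.64 and 13.71 in dB/dB catalase-Tg against 13.49, 13.49 and 13.47 in dB/dB. The 4 separated markers (25% of 16, against 4.87% of all probe sets) were Slc34a1 (0.18, SE 0.21), Lrp2 (0.88, SE 0.62), Hnf4a (0.97, SE 0.58) and Gatm (0.60, SE 0.42). Within the same arrays, podocyte, endothelial and mural markers ran the other way, as given below, and the part of that shift in the tubule genes was not tested beyond the covariate fit.

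Transporter lists too had their highest levels on dB/dB catalase-Tg 2 and 3, with array 1 inside the dB/dB range. They share genes with the proximal tubule markers, Slc5a12 among them, and are not independent of that list. All 18 amino acid transporters lay above 0 (median 0.83, or 1.28 without array 1), and the 3 separated ones (16.7%, against 4.87% of all probe sets) were Slc43a2 (0.76, SE 0.30) and the pair that forms the cystine transporter, Slc7a9 (0.68, SE 0.38) and Slc3a1 (0.85, SE 0.68). Slc7a9 read 11.58, 11.83 and 11.42 in dB/dB catalase-Tg, against 10.77, 11.22 and 10.81 in dB/dB, and on this gene dB/dB catalase-Tg 1 kept to its group. Of 34 ion and organic solute transporters, 32 lay above 0 (median 0.87, or 1.31 without array 1) against 48.3% of all probe sets above 0, and 7 were higher without overlap (20.6%, against 4.87%). Slc5a12, which takes up lactate, read 10.59, 12.41 and 12.33 in dB/dB catalase-Tg, against 10.20, 10.62 and 10.24 in dB/dB with overlap (1.43, SE 0.54), and Slc26a6, an oxalate and chloride exchanger, separated by 1.53 (SE 0.65). Glucose and gluconeogenesis genes had a median of 0.69 over 14, with Fbp1, fructose bisphosphatase (0.52, SE 0.37), and Hnf4a separated (14.3%, against 4.87% of all probe sets). Hnf4a is the proximal tubule marker given above. Pck1, the first committed enzyme of gluconeogenesis, read 13.18, 13.66 and 14.63 in dB/dB catalase-Tg, against 13.15, 12.97 and 13.21 in dB/dB (0.71, SE 0.43), and Khk, ketohexokinase, differed by 1.09 (SE 0.73). In the 9-array fit 12 amino acid, 24 ion and organic solute and 10 glucose genes passed higher and 0, 0 and 1 lower.

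Apical endocytosis, which recovers filtered protein, had a median of 0.40 over 17 genes. Lrp2, the megalin receptor, read 11.88, 12.95 and 12.71 in dB/dB catalase-Tg, against 11.46, 11.70 and 11.75 in dB/dB, and its adaptor Dab2 differed by 0.76 (SE 0.52). The phosphatase Ocrl was lower without overlap (-0.55, SE 0.24), as was Rab11a, and the chloride exchanger Clcn5 overlapped (0.95, SE 0.47). Without overlap, 2 were lower (11.8%, against 11.1% of all probe sets) and 2 higher (11.8%, against 4.87%), Lrp2 and Dab2. Lrp2 is also counted among the proximal tubule markers.

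Lipid genes were led by PPAR-alpha targets. The median over 18 of them was 0.97 (1.49 without array 1), 15 lay above 0 and 2 separated (11.1%, against 4.87% of all probe sets), Cyp4a12a and Creb3l3. Of the 18, 7 passed higher and 0 lower in the 9-array fit. Fabp1, a fatty acid carrier, read 5.32, 11.26 and 11.55 in dB/dB catalase-Tg and 6.00, 6.37 and 6.16 in dB/dB (3.20, SE 2.45), a spread within the transgenic group far wider than among the dB/dB arrays. Angptl4 and the droplet coat gene Plin2 differed by 1.76 (SE 0.95) and 0.95 (SE 0.58), with array 1 inside the dB/dB range for Plin2 and just below it for Angptl4. Mitochondrial fatty acid oxidation had a median of 0.28 over 20 genes, with Eci1, an enoyl-CoA isomerase, separated (0.37, SE 0.21). Eci1 made up 5% of that list, near the 4.87% of all probe sets. In lipid and sterol synthesis the median was 0.29 over 30 genes, with 21 above 0 and 9 below. Without overlap, 1 was higher (3.33%, against 4.87% of all probe sets) and 3 were lower (10%, against 11.1%). Both shares are near those of all probe sets. Mvd read 5.65, 6.59 and 6.53 in dB/dB catalase-Tg, against 4.73, 4.66 and 4.57 in dB/dB (1.60, SE 0.57), whereas Fdft1 (-0.61, SE 0.23), Pmvk (-0.66, SE 0.28) and Scd2 were lower without overlap. Hmgcs1 and Sqle, further enzymes of the cholesterol pathway, differed by 0.65 (SE 0.35) and 0.72 (SE 0.31) with overlap. The 34 respiratory chain subunits had a median of -0.08 that became 0.03 without array 1, and 0 of them were separated upward and 4 downward, a share of 11.8% that is near the 11.1% of all probe sets.

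Androgen-responsive tubule genes lay above 0 for 14 of 14 members (median 0.74, or 1.28 without array 1). Kap itself read 13.04, 15.29 and 14.62 in dB/dB catalase-Tg and 13.59, 12.79 and 13.70 in dB/dB, so the groups overlapped (0.96, SE 1.90). Cyp4a12a, a male-typical fatty acid hydroxylase that is also counted among the PPAR-alpha targets, read 6.28, 10.24 and 9.86 in dB/dB catalase-Tg, against 5.91, 4.70 and 5.28 in dB/dB (3.50, SE 1.83), and was the separated member (7.14% of the list, against 4.87% of all probe sets). Of the 14, 5 passed higher and 0 lower in the 9-array fit. The list level was -1.15, 1.30 and 0.48 in dB/dB catalase-Tg, against -0.96, -1.30 and -0.87 in dB/dB.

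Fibrosis and matrix genes lay below 0 for 19 of 21 tested, with a median of -0.63 (-0.78 without array 1), and 16 further members were below the filter, Col1a1 and Tgfb1 among them. Tgfb1 read 2.94, 2.37 and 2.32 in dB/dB catalase-Tg, against 3.18, 2.45 and 3.30 in dB/dB. The 2 separated members (9.52%, against 11.1% of all probe sets) were Ccn2, given above, and Lamb1, a laminin chain of basement membrane, at 8.84, 8.47 and 8.62 in dB/dB catalase-Tg against 9.42, 9.24 and 9.30 in dB/dB (-0.68, SE 0.26). Genes of tubular injury lay below 0 for 14 of 19 (median -0.91, or -1.40 without array 1), with 6 lower without overlap (31.6%, against 11.1% of all probe sets). Fibrosis genes passed lower in 10 cases and injury genes in 9 in the 9-array fit, and 1 of each passed higher. Anxa1, an annexin raised in injured tubules, read 9.06, 7.25 and 6.07 in dB/dB catalase-Tg, against 9.83, 9.23 and 10.33 in dB/dB (-2.34, SE 1.11), and Prom1 differed by -0.91 (SE 0.52). Cdkn1a, the cell cycle inhibitor p21, had the smallest unadjusted p among the higher members (0.53, SE 0.23) and overlapped. Havcr1 and Lcn2, the usual injury markers KIM-1 and NGAL, lay below the filter.

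Interferon and MHC class I genes overlapped in every case among the 27 tested, and dB/dB catalase-Tg 1 was the highest of the 6 arrays. Their level was 2.14, -0.55 and -0.98 in dB/dB catalase-Tg and 0.27, 1.14 and 0.02 in dB/dB. The median was -0.25, or -1.07 without array 1 and 0.34 without dB/dB catalase-Tg 3. Trim30a read 6.09, 4.27 and 3.86 in dB/dB catalase-Tg, against 5.83, 6.09 and 5.85 in dB/dB (-1.18, SE 0.64). In the 9-array fit 14 of the 27 passed lower and 0 higher. The median was -0.31 for 29 immediate early and heat shock genes (-0.69 without array 1), with Hspa1b, an inducible heat shock protein, separated at 11.46, 10.15 and 9.87 in dB/dB catalase-Tg against 11.80, 11.91 and 12.15 in dB/dB (-1.46, SE 0.94) and Klf4 overlapping (-1.77, SE 1.16). Hspa1b made up 3.45% of the list, against 11.1% of all probe sets separated lower.

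Of 22 leptin and insulin signalling genes tested, 4 were lower without overlap (18.2%, against 11.1% of all probe sets) and 0 higher, with a median of -0.17. Of the 22, 4 passed higher and 4 lower in the 9-array fit. Irs1, the insulin receptor substrate, read 6.86, 5.71 and 6.17 in dB/dB catalase-Tg, against 8.09, 7.61 and 7.75 in dB/dB (-1.57, SE 0.59). Grb14, an adaptor that dampens the insulin receptor, differed by -1.02 (SE 0.47), at 7.65, 7.03 and 7.30 in dB/dB catalase-Tg against 8.57, 8.45 and 8.03 in dB/dB. The other 2 were Foxo3 and Tbc1d4. Rgcc, a regulator of the cell cycle, read 6.06, 6.43 and 6.78 in dB/dB catalase-Tg, against 6.72, 7.40 and 7.20 in dB/dB, and overlapped by a narrow margin (-0.68, SE 0.34).

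**Figure D4:**
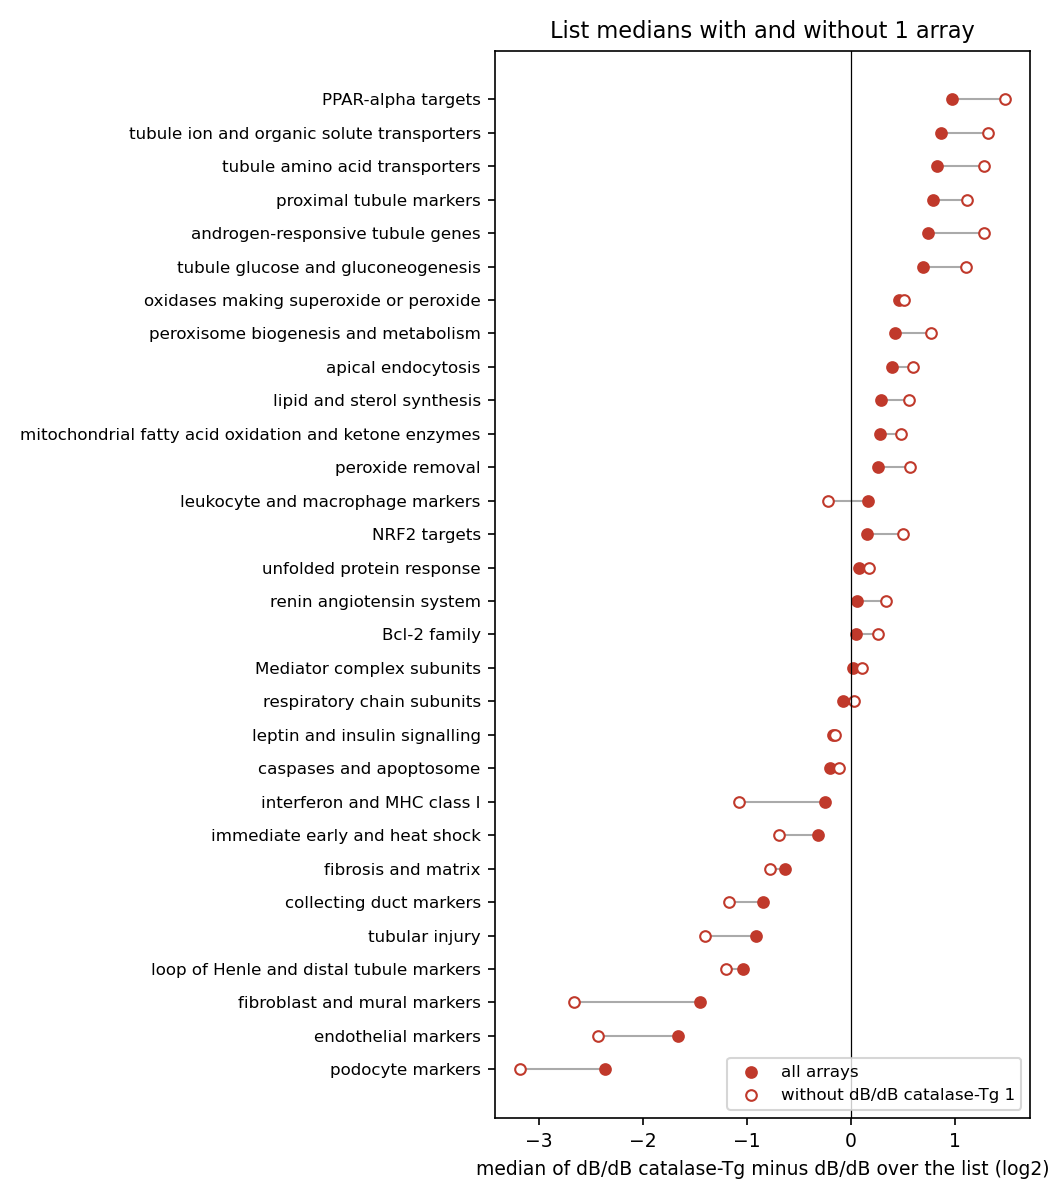
Median of dB/dB catalase-Tg minus dB/dB (log2) over each gene list with at least 9 genes tested, with all arrays (filled) and without dB/dB catalase-Tg 1 (open). PPAR-alpha targets lay at 0.97 with all arrays and at 1.49 without that array, and endothelial markers at -1.66 and -2.43.

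Markers of cells that Percoll preparations can carry along were lower in dB/dB catalase-Tg 2 and 3. Podocyte markers lay below 0 for 13 of 13 (median -2.36, or -3.18 without array 1) and 5 were separated (38.5%, against 11.1% of all probe sets), while in the 9-array fit 2 of the 13 passed lower. Their level was 0.72, -0.94 and -1.47 in dB/dB catalase-Tg and 1.58, 0.44 and 2.44 in dB/dB. Nphs1, nephrin of the slit diaphragm, read 6.83, 4.63 and 4.23 in dB/dB catalase-Tg, against 7.43, 6.06 and 7.70 in dB/dB (-1.83, SE 0.98). Endothelial markers lay below 0 for 24 of 24 (median -1.66, or -2.43), and 22 of the 24 passed lower in the 9-array fit. Nostrin alone separated (-1.76, SE 0.67), or 4.17% of the list, a share under the 11.1% of all probe sets. Pecam1 read 8.29, 4.15 and 3.83 in dB/dB catalase-Tg, against 7.67, 6.65 and 7.93 in dB/dB, so that dB/dB catalase-Tg 1 was the highest of the 6, and Plvap (-1.05, SE 0.61) and Cldn5 (-2.81, SE 1.22) overlapped too. Fibroblast and mural markers had a median of -1.45 over 10, with Pdgfra at 3.32, 2.69 and 2.30 in dB/dB catalase-Tg against 5.54, 3.72 and 6.30 in dB/dB (-2.42, SE 0.82). Rgs5, a pericyte gene, read 11.44, 6.08 and 6.17 in dB/dB catalase-Tg, against 10.70, 10.50 and 10.73 in dB/dB (-2.75, SE 1.50). In the 9-array fit 9 of the 10 fibroblast and mural markers passed lower.

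Of later nephron segments, 11 of 18 loop of Henle and distal tubule markers were lower without overlap, or 61.1%, against 11.1% of all probe sets. Their levels were 0.82, 0.09 and 0.11 in dB/dB catalase-Tg and 1.42, 1.05 and 1.05 in dB/dB, separated on all arrays, and the median was -1.03 (-1.20 without array 1). Of the 18, 2 passed lower and 1 higher in the 9-array fit, whose background is 11.7% lower and 16.1% higher. Trpm7 read 10.62, 10.30 and 10.49 in dB/dB catalase-Tg, against 11.62, 11.34 and 11.35 in dB/dB (-0.96, SE 0.42), and Umod, uromodulin of the thick limb, 14.54, 14.36 and 14.34 in dB/dB catalase-Tg against 14.69, 14.60 and 14.78 in dB/dB. Whether Trpm7 and other list members, such as Wnk1 and Stk39, are restricted to these segments was not tested. Slc12a3, the thiazide-sensitive cotransporter, overlapped at 13.82, 12.01 and 11.89 in dB/dB catalase-Tg against 14.09, 13.86 and 13.72 in dB/dB. For 13 collecting duct markers tested the median was -0.85, and 10 lay below the filter, Aqp2, the water channel that defines principal cells, at the floor on all 6 arrays. Of the 13, 9 lay below 0 and 4 above, with the highest at 1.01. Lower without overlap were 2 (15.4%, against 11.1% of all probe sets), and in the 9-array fit 5 passed lower and 1 higher. Slc26a4, pendrin of intercalated cells, read 7.49, 3.90 and 4.51 in dB/dB catalase-Tg, against 7.70, 6.42 and 7.41 in dB/dB (-1.88, SE 0.94), and Gata3 separated by -1.52 (SE 0.62). Gata3 is also counted among the fibroblast and mural markers.

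Leukocyte marker levels overlapped between the groups, at 2.42, 1.00 and -1.06 in dB/dB catalase-Tg and -0.43, 1.93 and -0.51 in dB/dB, with 12 of 30 tested. The MHC class II genes H2-Ab1 and Cd74 read 11.79 and 12.39 on dB/dB catalase-Tg 1, above 6.59 and 5.64 for H2-Ab1 and 7.67 and 5.99 for Cd74 on arrays 2 and 3. In dB/dB they reached at most 7.77 and 8.59, on dB/dB 2. Their differences of 1.87 (SE 1.31) and 1.68 (SE 1.32) rested on that array and were -0.02 and -0.17 without it. The 2 red cell markers tested had levels of 1.28, 0.86 and -0.56 in dB/dB catalase-Tg, against -0.31, 1.14 and -0.18 in dB/dB.

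The same transgene was also compared without dB/dB, in catalase-Tg against wild type, which shares no arrays with the comparison above. Of the 883 probe sets higher without overlap in dB/dB catalase-Tg, 160 were higher without overlap in catalase-Tg too, which is 18.1% of the 883 and 15.4% of the 1041 in catalase-Tg (5.74% of all probe sets). Of the 2014 lower, 413 were lower there, which is 20.5% of the 2014 and 29.2% of the 1415 in catalase-Tg (7.8% of all probe sets). Separated in opposite directions were 4 and 19. These counts moved with the wild-type arrays that carry Xist. With wild type 2 left out, so that 3 arrays met 2, 2184 were higher and 3361 lower in catalase-Tg (12% and 18.5% of all probe sets), 346 of them shared higher and 1049 shared lower. With wild type 3 left out they were 1610 and 1997, with 234 and 501 shared. Other-cell markers ran the same way in this comparison. Their level was -0.54, -1.65 and -1.67 on catalase-Tg 1, 2 and 3, against 1.73, -1.51 and 0.38 on wild type 1, 2 and 3. The catalase-Tg minus wild type median was -2.61 for podocyte, -1.22 for endothelial and 0.68 for proximal tubule markers. The part of this shift in the shared counts was not tested. Med1 read 5.99, 6.12 and 6.32 on catalase-Tg arrays and 8.02, 7.98 and 8.03 on wild-type arrays, a difference of -1.87 (SE 0.21, adjusted p = 0.0146, limma), beside -2.27 with dB/dB. Without wild type 2 it was -1.89 (adjusted p = 0.0214) and without wild type 3 it was -1.86 (adjusted p = 0.0757, so that the call ended). Acbd4 differed by 1.23 (SE 0.20, adjusted p = 0.213), beside 1.36 with dB/dB, and by 1.30 (adjusted p = 0.0397) without wild type 2. Ttr differed by 2.92 in both, and without dB/dB this did not pass (SE 1.03, adjusted p = 0.532, limma). Its value was 3.05 without wild type 2 and 3.94 without wild type 3. The 3 further Ttr probe sets differed by 2.72, 2.25 and 2.06 without dB/dB. Smarce1 differed by -0.88 (SE 0.25, adjusted p = 0.448), beside -1.47.

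Whether the transgene difference itself depended on dB/dB was tested by the interaction, and 1 probe set of 18144 (0.00551%) passed, while 297 (1.64%) had an unadjusted p under 0.05. The gene that passed, Angptl7, a secreted angiopoietin-like protein, was near the floor in dB/dB catalase-Tg (2.60, 2.49 and 2.49) and in dB/dB (2.36, 2.49 and 2.37) and was high in catalase-Tg (7.51, 7.96 and 9.47) over wild type (2.49, 2.48 and 2.49). Its transgene difference was 0.12 with dB/dB and 5.83 without, an interaction of -5.71 (SE 0.55, adjusted p = 0.0163, limma), or -5.70 (adjusted p = 0.0793) without wild type 2. The interaction had 0 calls when wild type 1 or 2, catalase-Tg 2, or any of the 6 dB/dB and dB/dB catalase-Tg arrays was left out. Fkbp1b, which binds calcium release channels, ran alike, at 0.16 with dB/dB and 2.47 without (interaction -2.31, SE 0.31, adjusted p = 0.15). Angptl7 and Fkbp1b lay above 4 only on the 3 catalase-Tg arrays. They thus passed the filter only through the group that makes their interaction, and the test is not independent of that filter. Rai14 was lower by -0.98 with dB/dB and higher by 0.76 without (interaction -1.74, SE 0.32, adjusted p = 0.965).

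Decr2, Nnt and Bmf were separated with dB/dB and overlapped without, Agt overlapped in both, and none of the 4 interactions passed. Decr2 differed by 1.74 with dB/dB and 0.35 without (interaction 1.40, SE 0.33, unadjusted p = 0.00148, adjusted p = 1.00, limma). Nnt differed by 1.08 and -0.44 (interaction 1.52, SE 0.33, unadjusted p = 0.00079). Bmf differed by -1.02 and -0.05 (interaction -0.97, SE 0.44, unadjusted p = 0.053), and Agt by 1.46 and -1.55 (interaction 3.00, SE 1.32, unadjusted p = 0.0449). For these 4 the adjusted p was 1.00. Without wild type 2 the interactions were 1.25 for Decr2, 1.51 for Nnt, -0.67 for Bmf (unadjusted p = 0.126) and 2.28 for Agt (unadjusted p = 0.106). The dB/dB against wild type difference, which shares the dB/dB arrays, was -1.20 for Decr2, -0.68 for Nnt, 1.26 for Bmf and -1.49 for Agt, and 2.23 for Rgcc, and none of these passed.

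**Figure D5:**
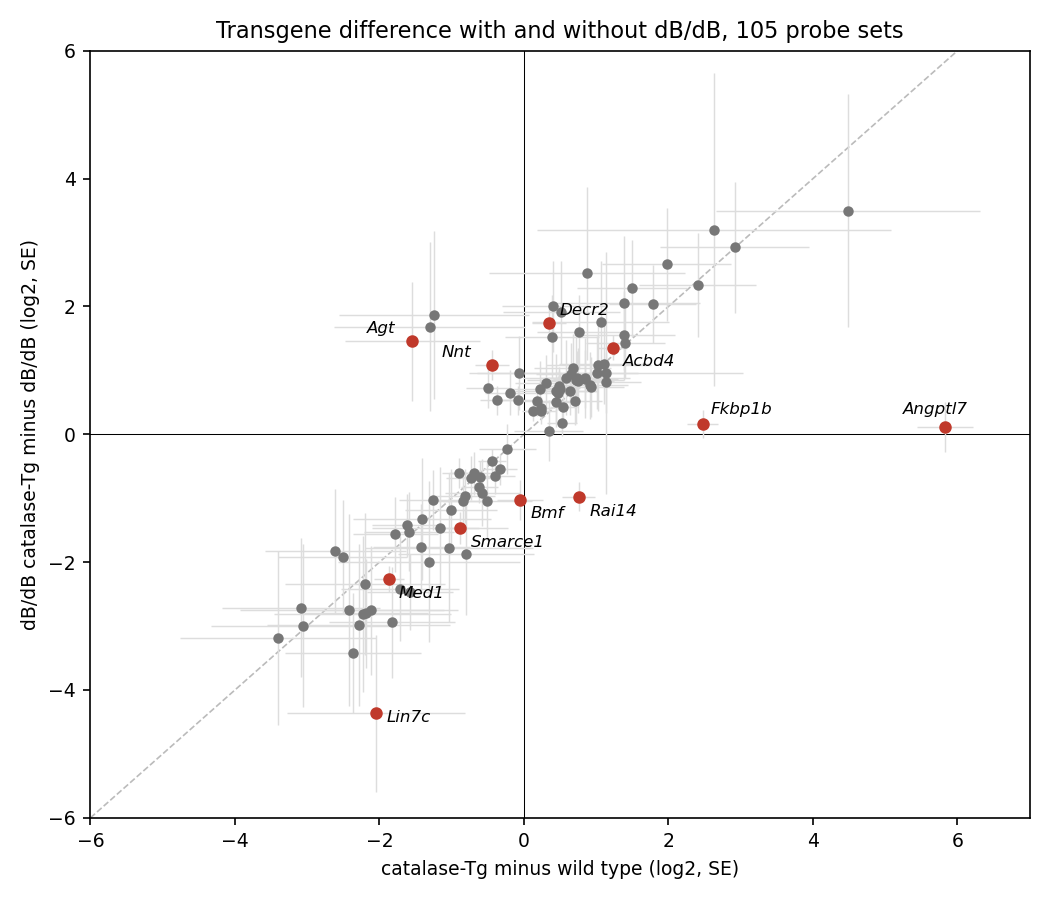
The transgene difference with dB/dB (dB/dB catalase-Tg minus dB/dB, vertical) against that without (catalase-Tg minus wild type, horizontal) for 105 probe sets named or considered here, in log2 with SE bars, with equality as a dashed line. Med1 and Acbd4 lie near the line, and Angptl7 lies far to the right at 5.83 without dB/dB and 0.12 with it.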

How the data were processed

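The values are log2 expression per probe set as deposited, made by the authors with GCRMA, per the submitters' processing notes, which also name limma and no versions. They ran from 2.302, a floor, to 15.66, and were not normalized again. All 45101 probe sets but 64 controls were considered, and 34945 had 1 gene symbol in GEO's annotation, 932 several and 9160 none. A probe set was tested if above 4 on at least 3 of 12 arrays. Tests used limma (version 3.58.1, under R 4.3.3), a mean for each group, all 12 arrays in 1 fit and Benjamini-Hochberg adjustment, and called at an adjusted p under 0.05. SE is that of the moderated test. On simulated data for this comparison the fit called 14 of 50 probe sets changed by 1 (log2), 34 of 50 at 2 and 8 of 17944 unchanged. The simulated noise was independent between probe sets, with the same spread in all groups and no array standing apart. The real arrays differ in this, so these shares do not give the recovery in the data.

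A gene in 1 of 33 lists was represented by its probe set of highest mean. Of 800 list entries, 721 were on the array. The members and lists were chosen with earlier results of these data known. Named genes were Cat, Lepr, called probe sets, the 10 largest differences either way without overlap at an unadjusted p under 0.05 and a higher mean of at least 5 (215 higher and 568 lower were eligible), genes on which work with this model centred, the first 3 and up to 4 smallest p of a list, and up to 5 of smallest interaction p. Smarce1, Nnt, Syt9 and list members named because their groups did not overlap were named after their values were seen. Depth does not apply to arrays, and their number limits the precision.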

Additional observations from a re-analysis of the deposited data

Results flagged for a closer look

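Angptl7 was picked out because its transgene difference itself differed between the dB/dB state and its absence, by an interaction of -5.71 (log2, SE 0.55, adjusted p = 0.0163, limma, or 0.0793 without wild type 2). It was near the floor on all 3 dB/dB catalase-Tg and all 3 dB/dB arrays and between 7.51 and 9.47 on the catalase-Tg arrays, against 2.48 to 2.49 in wild type. It passed the filter only through the catalase-Tg arrays.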

How the results depend on the processing

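Of 105 differences named or considered, 81 had a value in all 24 alternatives, and 59 of these kept their sign in each. The other 24 were left without a value by the stricter filter or by taking 1 probe set per gene, had at least 22 alternatives, and 21 of them kept their sign. The 1 call of the transgene comparison in dB/dB became 2 with the 6 arrays alone, 3 with no filter, 6989 with array weights, 5043 in the 9-array fit, which leaves out dB/dB catalase-Tg 1, catalase-Tg 1 and wild type 1, and 0 with the other-cell marker covariate and array weights together. Leaving out single arrays gave 0 to 4, with 4 without wild type 1 and 0 without dB/dB 1, 2 or 3 or dB/dB catalase-Tg 2. The sample number as a replicate block left the count at 1. Deviations of same-numbered dB/dB catalase-Tg and dB/dB arrays correlated at -0.045, -0.13 and 0.11, and 6 of 12 arrays correlated best with an array of their own number. The 3 arrays of lowest weight are all numbered 1, but the labels tie the numbers to nothing shared. The interaction's 1 call became 6 with no filter, 143 in the 9-array fit and 0 with the replicate block or with covariate and weights together, and leaving out single arrays gave 0 to 2. With array weights 91 of the 105 passed that had not, and 78 in the 9-array fit.

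With the other-cell marker covariate, differences turned sign to -0.72 and -0.29 for the brighter and dimmer Cat probe sets, -0.16 for Agt, -0.84 for Kap, -0.20 for Nox4, 0.00 for Angptl7, -0.09 for Khk, -0.02 for Fbp1, -0.17 for Slc3a1, -0.15 for Lrp2, -0.07 for Dab2, -1.53 for Fabp1, 0.13 for Hspa1b, 0.31 for Klf4, 0.41 for Pecam1 and 0.39 for Slc12a3. With covariate and weights they turned to -0.52 and -0.10 for Cat, -0.03 for Nox4, -0.15 for Angptl7, -0.21 for Slc3a1, -0.05 for Lrp2, 0.00 for Eci1, -1.43 for Fabp1, 0.06 for Ccn2, 0.44 for Anxa1, 0.39 for Hspa1b, 0.17 for Klf4, 0.00 for Ptpro, 0.04 for Nphs1 and 0.57 for Slc12a3. Pecam1, Ptpro and Nphs1 are themselves among the markers averaged in the covariate, so their turns are no independent results. Weights alone gave 0.24 for the second Med1 probe set and -0.01 for Fkbp1b. Without dB/dB catalase-Tg 1, alone or with the other 2 arrays, the second Med1 probe set gave 0.28, Fkbp1b -0.02, H2-Ab1 -0.02 and Cd74 -0.17. The brighter Cat probe set gave -0.04 and -0.17 without dB/dB catalase-Tg 2 or 3 and -0.01 without dB/dB 1. Over single arrays left out, the second Med1 probe set ran from -0.5 to 0.28, Fkbp1b from -0.02 to 0.25, H2-Ab1 from -0.02 to 3.05 and Cd74 from -0.17 to 3.03. The causes of these turns were not tested. Signal near the floor of 2.302 limits Lin7c, Syt9, Gm266, Angptl7 and Fkbp1b, for which a difference depends on the floor. Other genes came near it on some arrays. Among them were Mndal (2.40), Pdgfra (2.30) and Nostrin (2.39) on dB/dB catalase-Tg 3, and Apoh (2.59 on each dB/dB array).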
